A study of Mus musculus with 21 samples.

Results

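The comparison described here sets mouse embryonic stem cells at day 0 against the aggregates that the same line formed after 2 days of differentiation with ascorbic acid (vitamin C, AA). It takes 6 of the 21 arrays of the series, chosen by their labels: replicates 1 to 3 of the undifferentiated cells and replicates 1 to 3 of the day 2 aggregates with AA. All cells are CGR8, an established mouse embryonic stem cell line. The day 0 group was kept in a medium labelled 10% GMEM and received no AA. The day 2 AA group grew as embryoid bodies in hanging drops of 500 cells per 25 µL, in a medium labelled 20% IMDM with AA at 100 µM. A day 2 control group of 3 arrays, in 20% IMDM without AA, is used here to set the step without AA beside the step with it. Total RNA (100 ng) was hybridised to an Affymetrix mouse array. Only cultures in which AA later raised the number of beating aggregates were taken further, so the arrays are a selected set.

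Time, aggregation, medium and AA all differ between the day 0 and day 2 AA groups, so their effects cannot be told apart in this comparison. Every value is a log2 signal made with RMA, a method that corrects background, normalises arrays and summarises probes, so a difference of 1 is a doubling. In a bulk sample, fewer cells of a type and less RNA per cell cannot be told apart. The samples are labelled biological replicates, and nothing further says how the cultures were kept separate; the p values measure the spread between these samples.

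Mouse embryonic stem cells are held in a naive state, the counterpart of the epiblast before implantation, by the cytokine LIF acting through STAT3 and by a network of factors that includes Klf4, Tfcp2l1, Esrrb and Nanog. When cells leave that state they first turn into formative and then primed epiblast-like cells, which switch on Fgf5, Pou3f1, Otx2 and the de novo DNA methyltransferases before any germ layer is specified. Ascorbic acid is a reducing cofactor of the iron-dependent dioxygenases, which include the TET oxidases of methylated cytosine, the JmjC histone demethylases, the prolyl hydroxylases that mark HIF for destruction and the collagen prolyl hydroxylases.

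At day 0 the pluripotency genes Pou5f1 (11.26, 11.88 and 12.13 on replicates 1, 2 and 3), Sox2 (12.20, 12.37 and 12.36) and Nanog (10.61, 11.90 and 11.94) were all high. Pou5f1 and Sox2 stayed high at day 2 with AA, so they cannot tell undifferentiated cells from the day 2 aggregates. On the mean levels of the naive and epiblast lists given below, day 0 replicate 1 lay between the other day 0 arrays and the day 2 arrays. One day 0 array, replicate 1, was unlike the others. Over 18193 genes, each read from its brightest probe set, it correlated with them at r of 0.969 and 0.966, against 0.989 between those 2. With the day 2 AA arrays its r was 0.975 to 0.979. Of the 1350 genes that rose by day 2, 613 had their highest day 0 value on this array, and of the 1141 that fell, 831 had their lowest there. Results are therefore given with it, and list counts also without it where they changed by over 1.5 times or where a call was gained from 0 or lost to 0. RNA integrity was read from Actb as its 3′ signal minus its 5′ signal, which was 0.79, 0.82 and 0.87 at day 0 and 0.91, 1.08 and 0.91 at day 2 with AA. The same measure overlapped between day 0 and day 2 AA for Gapdh and Tfrc. In the day 2 controls it was 1.22, 1.4 and 0.94 for Actb and 0.36, 0.63 and 0.17 for Gapdh. Gapdh read 0.15, 0.21 and 0.11 with AA, so for both genes the control was higher in each pair of equal number. For Tfrc the order differed between pairs. The part of RNA integrity in the results, including those of AA against control, was not tested. Bacterial Trp control probe sets, which should see no target, read 3.19 to 4.02, and a gene at about 4 or below may be no more than background.

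Of 18193 genes, 2491 (13.7%) passed the test (limma over all 21 arrays, Benjamini-Hochberg adjusted p under 0.05), of which 1350 (7.42%) rose and 1141 (6.27%) fell. The median difference over all genes was -0.0033. The list counts below stand beside these shares of 7.42% and 6.27% and were not tested against them. A gene is said below to have risen or fallen only where it passed this test. Of the changes, 220 rises and 321 falls were over 2-fold, and 6 rises and 10 falls were over 8-fold. Without day 0 replicate 1, 1592 genes rose (8.75%) and 1970 fell (10.8%). Of the 2491 genes called with all arrays, 2229 were also called without it with the same sign. Without day 0 replicate 2, 942 rose and 644 fell, and without AA replicate 1 or 2 the rises numbered 893 or 884. A fit of the 6 arrays alone, which estimates the spread from these groups only, called 711.

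**Figure D1:**
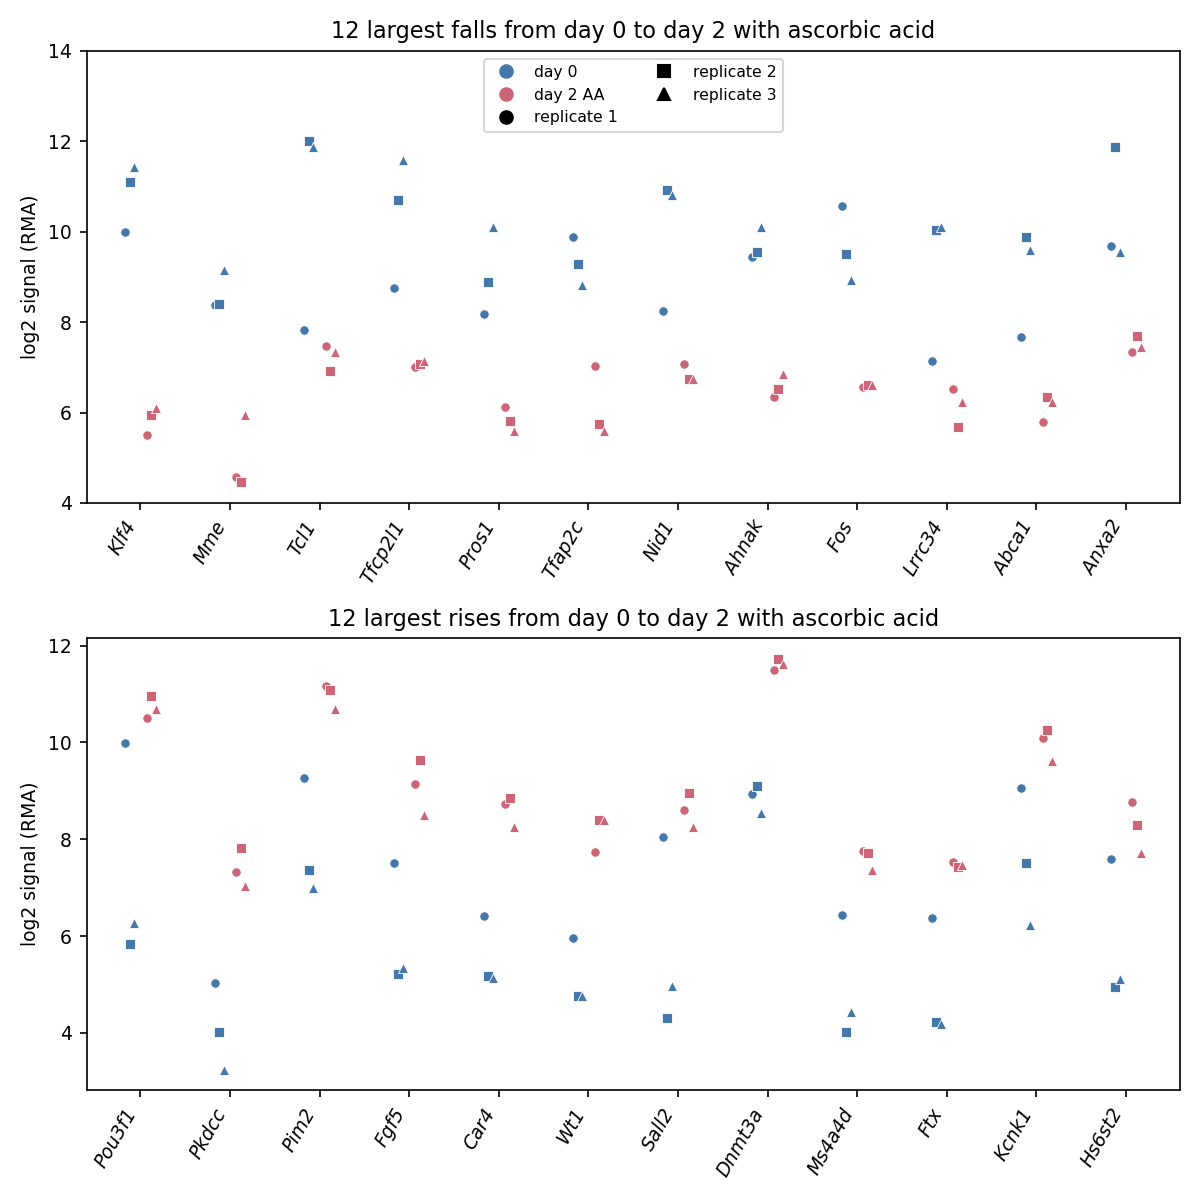
Log2 RMA signal of the 12 genes with the largest falls (top) and the 12 with the largest rises (bottom) among called genes whose arrays do not overlap, with one point per array; blue points are day 0, red points day 2 with AA, and the symbol shows the replicate. For many of these genes, among them Tcl1, Lrrc34, Nid1, Pou3f1, Sall2, Ms4a4d and Ftx, the day 0 replicate 1 circle lies nearer to the day 2 points than to the other day 0 points.

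Naive factors fell. Of 23 measured naive pluripotency factors, 15 fell and 0 rose, with a median difference of -1.43, and 14 of the 23 were lower on every day 2 AA array than on every day 0 array (10.2% of all genes were). Klf4, a factor that LIF induces and that sustains self-renewal, showed the largest fall of any named gene. Its signal was 10.00, 11.09 and 11.43 at day 0 and 5.51, 5.95 and 6.10 at day 2 with AA. The groups lay far apart, and the difference of -4.99 ± 0.31 (SE from limma, n = 3 per group) is 31.7-fold (adjusted p = 1.45e-08). This SE, like the others given for this step, takes the spread over all 21 arrays and not from these 2 groups alone. The SD of Klf4 was 0.75 at day 0 and 0.31 with AA, and where day 0 is more spread the SE understates it. Tfcp2l1, another target of LIF signalling in the network, stood at 8.75, 10.71 and 11.59 at day 0 and at 7.0, 7.07 and 7.14 with AA, a fall of 9.71-fold on its brightest probe set. Over the settings run its log2 difference went from -4.08 to -1.12, and it was called in all of them. For Tfcp2l1 replicate 1 was the lowest of the day 0 arrays, as it was in 14 of the 15 naive factors that fell.

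Klf2 and Klf5, relatives of Klf4 that share its sites, fell by 2.72 ± 0.28 and 2.62 ± 0.43 on the log2 scale. Zfp42 (Rex1), the classical marker of undifferentiated cells, read 10.91, 12.08 and 12.30 at day 0 and 9.55, 9.32 and 9.72 with AA. It fell 4.70-fold and kept a high signal. Nanog went from 10.61, 11.90 and 11.94 to 9.89, 9.65 and 9.19, a fall of 1.91 ± 0.35. Its groups do not overlap, and the distance from day 0 replicate 1 to the highest AA array was small. Esrrb, an orphan nuclear receptor of the network, fell by 1.43 ± 0.29 and Tbx3, a T-box factor, by 2.68 ± 0.46. Prdm14, which represses differentiation and DNA methyltransferase genes, read 5.04, 7.79 and 7.66 at day 0 and 4.03, 4.01 and 4.06 with AA. The AA values lie at the level of the bacterial controls, so no fold is given.

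Tcl1, a coactivator of the kinase Akt, shows how far the size of a fall can rest on day 0 replicate 1. It read 7.83, 12.00 and 11.87 at day 0 and 7.47, 6.91 and 7.34 with AA, so replicate 1 sat beside the AA arrays and the other 2 far above them. Its difference was -3.33 ± 0.67 with that array (limma, adjusted p = 0.00238) and -4.695 without it, and Tcl1 kept its call in every fit that left out 1 array. Nr0b1 (Dax1) and Pecam1 missed the threshold with all arrays (-1.60, adjusted p = 0.0511, and -0.66, adjusted p = 0.0522). Without that array 17 of the 23 naive factors fell, these 2 among them, and the list's median was -1.81. Fgf4, Dppa4, Dppa5a and Klf17 did not pass either way, with differences of 0.06, -0.0033, -0.13 and 0.12 with all arrays. In the fit of the 6 arrays alone, 7 naive factors passed.

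Over the LIF targets the called changes were falls. Of 20 measured LIF and STAT3 target genes, 11 fell and 0 rose (median -0.91), of which Klf4, Klf5 and Stat3 are also in the naive list. Socs3, the feedback inhibitor of the receptor and the most direct readout of STAT3 activity, was at 8.19, 7.77 and 8.19 at day 0 and at 6.33, 6.60 and 6.63 with AA. These groups were tight and clearly separate, and replicate 1 lay with the other day 0 arrays (-1.53 ± 0.14, 2.89-fold, adjusted p = 3.1e-06). The receptor chains Lifr and Il6st fell by 1.37 ± 0.32 and 1.07 ± 0.28, Stat3 itself by 1.15 ± 0.13, and the kinase gene Pim3 by 1.44 ± 0.18. Pim2, a kinase of the same family that belongs to the epiblast list below, rose. The labels say nothing of LIF in either medium. In the fit of the 6 arrays alone, 6 of the 11 passed.

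The 250 bases before the start of Socs3 (RefSeq, GRCm38.p6, chr11:117969367-117969616, minus strand) are shown because this gene carries the STAT-type palindrome TTCNNNGAA, in capitals.
Socs3: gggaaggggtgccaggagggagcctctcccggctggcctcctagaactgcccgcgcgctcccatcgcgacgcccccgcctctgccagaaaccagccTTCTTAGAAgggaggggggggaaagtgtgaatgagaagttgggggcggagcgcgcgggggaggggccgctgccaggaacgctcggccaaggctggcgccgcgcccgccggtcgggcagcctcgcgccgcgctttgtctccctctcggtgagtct
The palindrome begins at position -154 relative to the start. It was searched with spacers of 3 and 4 bases, and both were searched on both strands in the same window of every promoter. TTCNNNGAA was found in 3 of 19 LIF and STAT3 target genes that have a promoter in the table and in 8.13% of all genes, and the form with 4 spacer bases in 2 of 19 and in 6.76%. Of the 10 genes of that list that fell and have a promoter, 1 held TTCNNNGAA. A match is a stretch of letters and not a measured binding site.

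Of 16 core pluripotency genes, 2 fell, Sall4 (-0.60 ± 0.14) and Trim28 (-0.47 ± 0.07), and 0 rose, with a median of 0.01, a share called close to the 13.7% of all genes. With day 0 replicate 1 left out, 1 rose and 2 fell. Pou5f1 (Oct4), required in naive and primed cells alike, was at 11.58, 11.66 and 11.36 with AA, inside the range of its day 0 arrays (-0.22 ± 0.25, adjusted p = 0.673). Sox2, its partner on DNA, was at 11.32, 11.47 and 11.28 with AA, below all 3 day 0 arrays. This difference of -0.95 ± 0.43 did not pass (adjusted p = 0.173), because the fit takes the spread of Sox2 over all 7 groups. In the fit of the 6 arrays alone it did (adjusted p = 0.0106). That fit more often removed a call: of the 131 named genes called, 72 lost theirs. Among these were Tcl1, Klf5 and Esrrb (adjusted p = 0.102, 0.064 and 0.0948 in that fit).

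Among genes of the formative and primed epiblast the called changes were rises. Of 27 measured members, 14 rose and 0 fell, with a median of 1.40. Pou3f1 (Oct6), a POU factor of the formative epiblast, showed the largest rise that the naming rule gave. It stood at 9.99, 5.83 and 6.28 at day 0 and at 10.50, 10.95 and 10.69 with AA. Day 0 replicate 1 lay just below the AA arrays and the other 2 far below them, and the difference was 3.35 ± 0.71 (adjusted p = 0.00324) with that array and 4.66 without it. In the fit of the 6 arrays alone Pou3f1 did not pass (adjusted p = 0.0892). Fgf5, the standard marker of this stage, read 7.51, 5.21 and 5.35 at day 0 and 9.15, 9.63 and 8.50 with AA, a rise of 8.40-fold. Its groups do not overlap, with replicate 1 again the highest at day 0.

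The serine/threonine kinase gene Pim2 rose 8.61-fold, from 9.26, 7.36 and 6.99 to 11.16, 11.08 and 10.69. Car4, a membrane carbonic anhydrase, rose 8.22-fold, and Sall2, a zinc finger factor, 7.11-fold. The zinc finger genes Zic2 and Zic5 rose by 1.81 ± 0.37 and 1.87 ± 0.29, and the SoxB1 gene Sox3 by 1.31 ± 0.28. In 12 of the 14 members that rose, day 0 replicate 1 was the highest day 0 array. Otx2, the factor that drives the exit into the formative state, read 9.76, 7.96 and 5.73 at day 0 and 9.81, 9.94 and 9.38 with AA. The groups overlap through replicate 1, and its difference of 1.89 ± 0.74 did not pass (adjusted p = 0.103). Without that array it did (2.87, adjusted p = 0.00389), and 18 members rose and 2 fell, with a median of 1.88. In the fit of the 6 arrays alone, 6 rose.

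**Figure D2:**
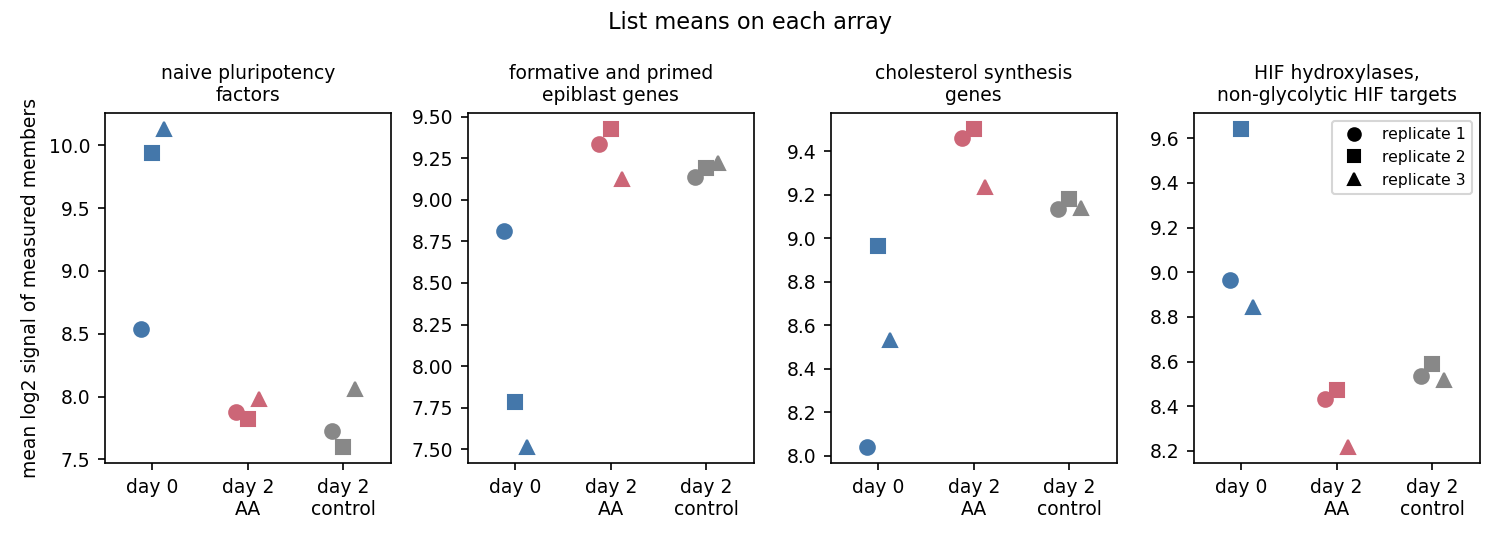
Mean log2 signal over the measured members of 4 gene lists on each of 9 arrays, with one symbol per replicate. For the naive and the formative lists day 0 replicate 1 (circle) lies between the other day 0 arrays and the day 2 arrays; for the cholesterol list it is the lowest day 0 array, and for the HIF list day 0 replicate 2 (square) is the highest.

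The mean level over the 23 naive factors was 8.54, 9.94 and 10.1 at day 0 and 7.87, 7.82 and 7.98 with AA. Over the 27 formative and primed genes it was 8.81, 7.78 and 7.51 at day 0 and 9.34, 9.43 and 9.12 with AA. Replicate 1 is thus the day 0 array nearest to day 2 on both lists, and neither pair of groups overlaps.

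Of 13 measured enzymes and cofactors that write and erase DNA methylation, 2 rose and 4 fell, and without day 0 replicate 1, 2 rose and 7 fell. Dnmt3a, a de novo methyltransferase, read 8.93, 9.09 and 8.54 at day 0 and 11.49, 11.73 and 11.61 with AA. Its groups were tight, day 0 replicate 1 lay between the other day 0 arrays, and the rise was 6.76-fold (2.76 ± 0.24, adjusted p = 1.78e-06). Dnmt3b, its partner, rose 3.57-fold, while Dnmt1, the maintenance enzyme, fell by 0.62 ± 0.12. Tet2, one of the oxidases that start demethylation and that use ascorbic acid as a cofactor, went from 8.65, 10.12 and 10.61 to 7.20, 6.98 and 7.36. Its groups lie well apart, a fall of 6.12-fold (adjusted p = 1.91e-05). Tet1 fell by 0.96 ± 0.23, and Tet3 did not pass (0.10, adjusted p = 0.868).

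Of 23 JmjC histone demethylase genes, 7 fell and 2 rose, or 7 and 1 without day 0 replicate 1. The largest fall was that of Kdm3a, an eraser of H3K9 methylation and a HIF target (10.61, 10.82 and 11.16 to 9.20, 9.16 and 9.29, -1.65 ± 0.18). Kdm5b and Kdm4c fell by 0.84 each on the log2 scale. Of 29 Polycomb genes, 6 fell, among them Jarid2 (-0.71 ± 0.15) and Suz12 (-0.48 ± 0.12), and 3 rose, led by Yaf2 (1.66 ± 0.16), a subunit of the variant complexes. With day 0 replicate 1 left out, 10 Polycomb genes fell and 3 rose. Of 31 germline genes that DNA methylation keeps silent, 2 fell and 0 rose, and without day 0 replicate 1, 4 fell and 1 rose. The 2 that fell were Zfp42, listed among them, and Stag3 (-1.55 ± 0.31), a meiotic cohesin. Of 8 genes of the 2-cell-like state, Tcstv1 alone was called, as lower, with all its values at the level of the bacterial controls, and without day 0 replicate 1 the call was lost. Of 14 primordial germ cell genes, 5 fell and 0 rose, among them Tfap2c (9.89, 9.28 and 8.82 to 7.03, 5.74 and 5.60), a factor of the naive and germ cell programmes, and the receptor Kit (-2.11 ± 0.31).

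Immediate early genes and FGF and ERK feedback genes changed in both directions. Of 28 immediate early genes, 7 fell and 2 rose. Fos, the prototype of the class, read 10.57, 9.51 and 8.93 at day 0 and 6.56, 6.60 and 6.60 with AA, a fall of 8.48-fold (adjusted p = 5.34e-06). The AA arrays were nearly equal while the day 0 arrays were spread. Egr1, a zinc finger factor induced with it, fell by 2.48 ± 0.33 and Junb by 0.76 ± 0.13. The 2 that rose were Ier5 (1.85 ± 0.24) and Srf (0.62 ± 0.13), the factor that binds the CArG box in such promoters. On this list the mean level was highest on day 0 replicate 1 (8.14, 7.73 and 7.65 at day 0 and 7.48, 7.38 and 7.36 with AA). Of 21 FGF and ERK feedback genes, 4 rose, among them Fgf5 and Fgf15 (1.48 ± 0.35), a ligand gene, Dusp4 (1.06 ± 0.24), a phosphatase of ERK, and the cyclin gene Ccnd1 (1.15 ± 0.32), and 1 fell, Spred2 (-0.43 ± 0.13). When day 0 replicate 1 was left out, 5 of these 21 rose and 4 fell.

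Among the remaining genes with the largest changes, Mme, which encodes the membrane peptidase neprilysin, read 8.37, 8.41 and 9.16 at day 0 and 4.58, 4.46 and 5.95 with AA. Replicate 3 was the highest in either group, and the fall was 12.5-fold. Pros1, which encodes the anticoagulant protein S, fell 9.23-fold (8.18, 8.88 and 10.10 to 6.13, 5.81 and 5.60). Ahnak, a very large scaffold protein, fell 8.71-fold on its brightest probe set with tight groups (9.44, 9.55 and 10.10 to 6.34, 6.52 and 6.86). Over the settings run its log2 difference went from -3.27 to -0.94, and it was called in all of them. Abca1, the cholesterol exporter, fell 7.60-fold on its brightest probe set, and its dimmer probe sets read -0.18 and -0.21. Lrrc34, a leucine-rich repeat gene expressed in pluripotent cells, fell 7.76-fold from 7.14, 10.04 and 10.11 to 6.51, 5.67 and 6.24.

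On the rising side, Wt1, a zinc finger factor of mesoderm derivatives, read 5.97, 4.76 and 4.77 at day 0 and 7.74, 8.40 and 8.39 with AA (8.06-fold). Every AA array lay well above every day 0 array. Pkdcc, a secreted tyrosine kinase, had day 0 values of 5.04, 4.01 and 3.24, 2 of them at the level of the bacterial controls, and AA values of 7.33, 7.83 and 7.03, so no fold is given. Another Pkdcc probe set, brighter at day 0, read a difference of 0.80. Ftx, a noncoding RNA of the X inactivation centre, rose from 6.38, 4.22 and 4.19 to 7.53, 7.43 and 7.47. The potassium channel gene Kcnk1 and the heparan sulfate sulfotransferase gene Hs6st2 rose 5.28-fold and 5.19-fold, each with day 0 replicate 1 highest in its group. Ms4a4d rose from 6.43, 4.01 and 4.44 to 7.75, 7.71 and 7.36, and no fold is given, since day 0 replicate 2 lies at the level of the bacterial controls.

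Of 25 primitive streak and early mesoderm genes, 2 rose, a share near the 7.42% of all genes, and 0 fell. The 2 were Amot (2.30 ± 0.45), a regulator of Hippo signalling, and the activin antagonist Fst (1.88 ± 0.48), neither of which is a streak transcription factor. Eomes, a T-box factor of streak and endoderm, read 6.74, 6.90 and 6.51 at day 0 and 7.56, 7.34 and 6.44 with AA. Its groups overlap (adjusted p = 0.659). Mixl1, a streak homeobox gene, was at 6.08, 6.02 and 6.22 and then at 6.80, 6.66 and 6.73. It was higher on all AA arrays and did not pass in the fit over all groups (0.62, adjusted p = 0.718), while the fit of the 6 arrays alone gave adjusted p = 0.0343. Of 15 definitive endoderm genes 0 passed in limma, 1 higher and 2 lower had an unadjusted p under 0.05, and without day 0 replicate 1, 1 rose and 1 fell. Of 16 early cardiac genes 1 fell, Ryr2 (-1.08 ± 0.27), and Nkx2-5, a cardiac homeobox factor, was between 7.16 and 7.89 on all 6 arrays. With day 0 replicate 1 left out, 1 cardiac gene rose and 1 fell.

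Of 22 neuroectoderm genes, 6 were called, with or without day 0 replicate 1. The 4 that rose were Zic2, Zic5 and Sox3, which the epiblast list also holds, and Sox11 (1.03 ± 0.22), whose other probe sets read 0.23 to 0.74. The 2 that fell were the neuronal genes Map2 and Ncam1, and the other Ncam1 probe sets read from -1.30 to 0.23. The neural factors Sox1 and Pax6 were between 5.63 and 5.99 on all 6 arrays. Markers of other cell types gave no uniform shift. Of 26 extraembryonic endoderm genes 5 fell, led by the laminin Lama1 (-2.09 ± 0.41), and 2 rose, the endocytic adaptor gene Dab2 (1.67 ± 0.30) and the receptor gene Cubn (1.32 ± 0.23), while the defining factors Gata6 and Sox17 differed by -0.19 and 0.03 (adjusted p = 0.719 and 0.953). The mean level of this list ran from 6.73 to 7.13 at day 0 and from 6.77 to 6.83 with AA. Without day 0 replicate 1, 9 of these genes fell and 3 rose. Of 21 trophoblast genes 1 rose (Krt18) and 1 fell (Tfap2c), and the defining factor Cdx2 did not pass (0.09, adjusted p = 0.923). With day 0 replicate 1 left out, 3 rose and 1 fell. Of 20 fibroblast genes 2 rose and 3 fell, with list means of 6.56 to 7.01 at day 0 and 6.68 to 6.74 with AA.

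**Figure D3:**
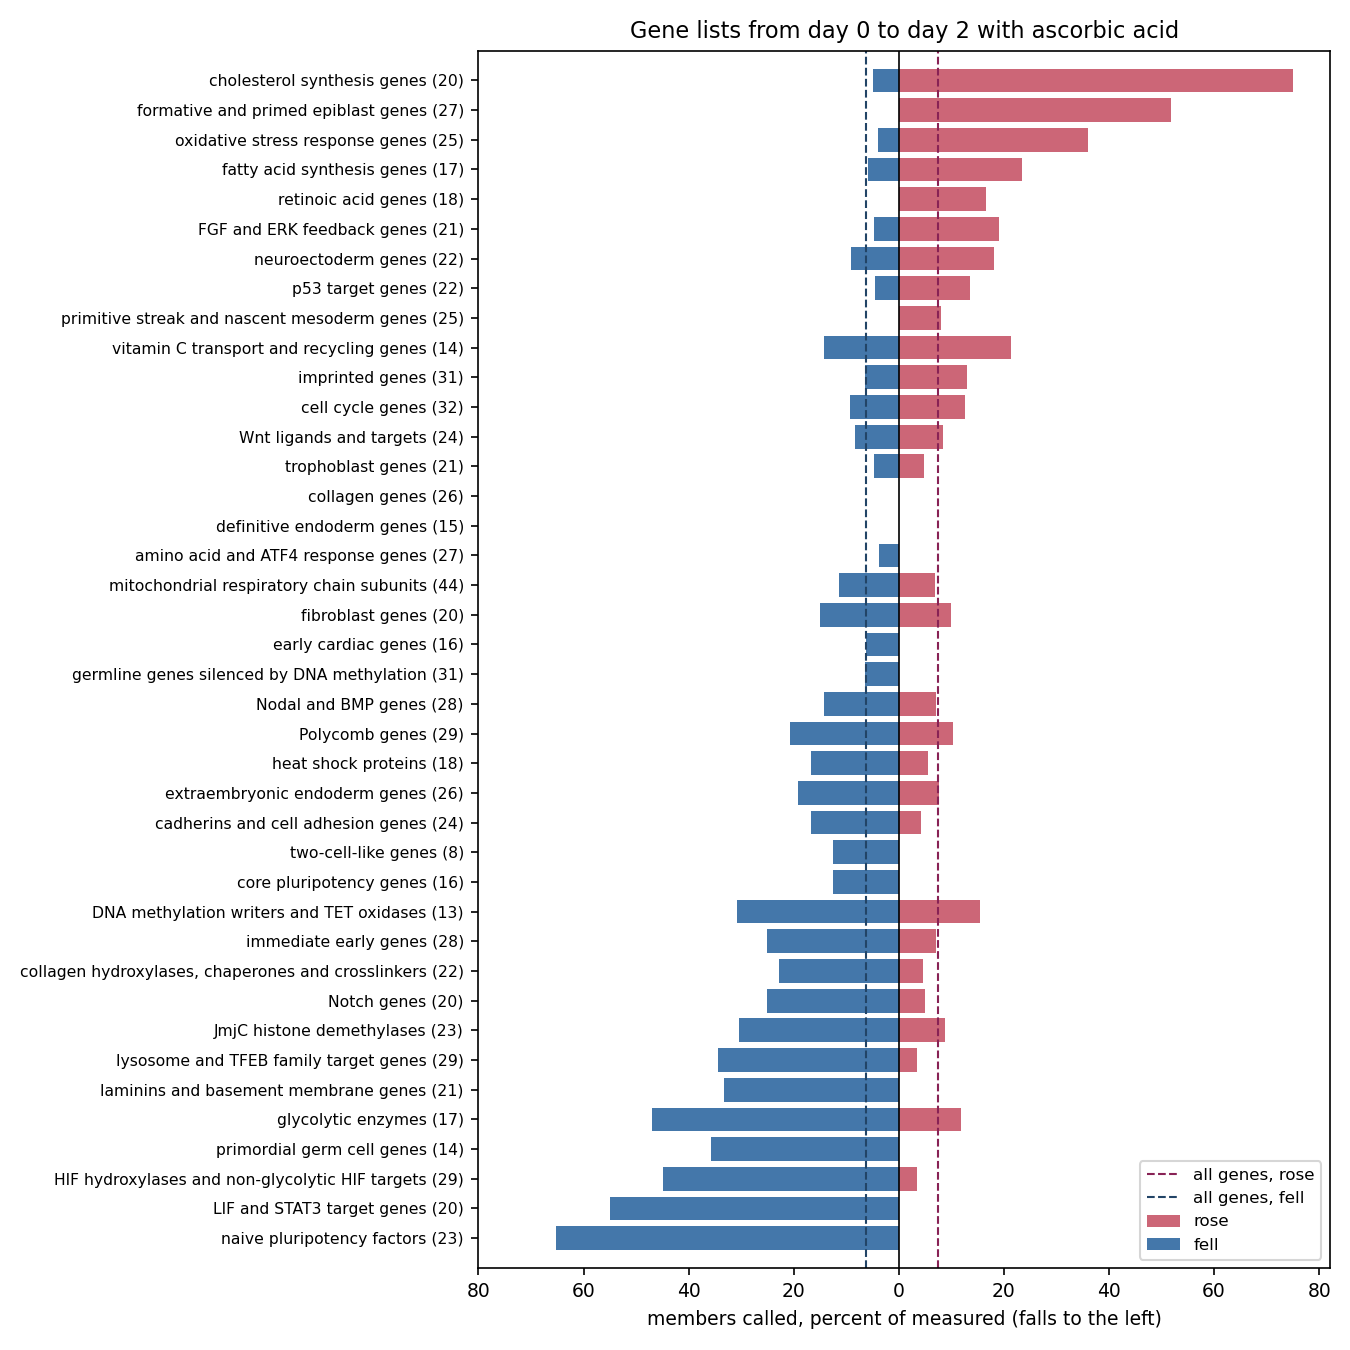
Share of the measured members of each of 40 gene lists that rose (red, to the right) or fell (blue, to the left) from day 0 to day 2 with AA, with the number measured in parentheses; dashed lines mark the shares over all 18193 genes, 7.42% and 6.27%. The cholesterol synthesis and epiblast lists reach farthest to the right, and the naive, LIF, glycolytic and HIF lists farthest to the left.

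Sterol synthesis rose along the pathway. Of 20 measured cholesterol synthesis genes, 15 rose and 1 fell, with a median of 1.00. Hmgcs1, which makes HMG-CoA at the head of the pathway, read 10.20, 11.12 and 10.32 at day 0 and 12.32, 12.23 and 11.86 with AA. The groups lie apart, and the rise was 3.01-fold (1.59 ± 0.18, adjusted p = 1.72e-05). Idi1, the isomerase of the isoprene units, went from 9.66, 9.62 and 9.27 to 11.36, 11.21 and 11.28, and Sc5d, a late desaturase, from 6.58, 6.81 and 6.72 to 8.53, 8.53 and 8.34. Both rises (1.77 ± 0.17 and 1.76 ± 0.17) came with tight groups, and day 0 replicate 1 lay close to the other day 0 arrays. Sqle, the epoxidase that commits squalene to sterols, rose by 1.28 ± 0.24, and Insig1, which retains the sterol sensor in the endoplasmic reticulum and is itself induced when sterols are low, by 1.64 ± 0.28.

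The gene that fell was Ebp, a sterol isomerase (-0.61 ± 0.20), and Srebf2, the transcription factor of the pathway, differed by 0.06 (adjusted p = 0.835). Over the list, day 0 replicate 1 had the lowest mean level (8.04, 8.96 and 8.53 at day 0 and 9.46, 9.50 and 9.24 with AA), opposite to its place among the epiblast genes. Without it 12 rose and 1 fell, with a median of 0.68. In the fit of the 6 arrays alone 4 rose. Of 17 fatty acid synthesis genes, 4 rose, among them Fads2, a desaturase (1.63 ± 0.19), and Fasn, the fatty acid synthase (0.84 ± 0.16), and 1 fell, Acss2 (-0.74 ± 0.24).

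The promoter of Hmgcs1 (RefSeq, GRCm38.p6, chr13:119690101-119690350, plus strand, 250 bases before the start) is shown because it is the only one among the 16 cholesterol genes with a promoter in the table that holds TCACNCCAC, a form of the sterol regulatory element, in capitals.
Hmgcs1: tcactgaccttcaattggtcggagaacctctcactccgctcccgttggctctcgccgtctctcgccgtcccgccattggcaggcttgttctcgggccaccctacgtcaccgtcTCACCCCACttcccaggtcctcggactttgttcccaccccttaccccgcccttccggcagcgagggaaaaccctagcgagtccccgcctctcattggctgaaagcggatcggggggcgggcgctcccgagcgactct
It begins at position -137 relative to the start. TCACNCCAC was found on either strand in this window in 1.22% of all genes. The other form searched, TCACNCGAC, was in 0 of the 16 and in 0.292% of all genes.

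Of 29 measured HIF hydroxylases and non-glycolytic HIF targets, 13 fell, 1 rose and 15 did not pass, with a median of -0.70. Slc2a3 (Glut3), which carries glucose and the oxidised form of vitamin C, read 13.65, 13.63 and 13.22 at day 0 and 11.65, 11.54 and 10.57 with AA. It was among the brightest genes at day 0 and fell 4.75-fold (adjusted p = 5.34e-06). Bnip3, a mitophagy receptor and HIF target, went from 11.84, 12.51 and 10.21 to 9.48, 9.67 and 9.41 (-2.0 ± 0.36), with replicate 3 the lowest at day 0. Ak4, a mitochondrial adenylate kinase, went from 9.64, 10.31 and 9.05 to 8.34, 8.09 and 7.36 (-1.74 ± 0.25) on its brightest probe set. The next brightest read -1.93, and the others read from -0.14 to 0.01.

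Egln3 and Egln1, prolyl hydroxylases that mark HIF for destruction and are themselves HIF targets, fell by 1.21 ± 0.30 and 0.70 ± 0.20, and the collagen prolyl hydroxylases P4ha1 and P4ha2, which HIF also induces, by 1.45 ± 0.28 and 1.34 ± 0.33. The gene that rose was Hif1a itself (9.98, 9.98 and 10.54 to 10.88, 10.94 and 10.95, 0.76 ± 0.12), with no overlap. Vegfa, the angiogenic ligand, differed by -1.28 and did not pass (adjusted p = 0.0789), and Car9, Pdk1 and Slc16a3, also HIF targets, differed by 0.09, 0.07 and 0.62 without passing. Day 0 replicate 2 had the highest mean level over the list (8.97, 9.64 and 8.84 at day 0 and 8.43, 8.47 and 8.22 with AA). Without that array 8 members fell, and without day 0 replicate 1, 15 did. In the fit of the 6 arrays alone 5 fell.

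The glycolytic enzymes, many of which are HIF targets, were counted apart. Of 17, 8 fell and 2 rose (median -0.52), or 7 and 1 without day 0 replicate 1. Pfkp, the platelet-type phosphofructokinase, went from 9.89, 12.08 and 11.61 to 8.46, 9.18 and 8.51, a fall of 5.57-fold. Pfkl, the liver type, fell by 1.53 ± 0.21 and Hk2, hexokinase, by 1.09 ± 0.20. Pfkm, the muscle type, rose by 0.48 ± 0.14, and Eno3, the muscle enolase, by 0.70 ± 0.23. Ldha and Tpi1 did not pass (-0.27 and -0.52, adjusted p = 0.417 and 0.114).

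The promoters of the 3 members of the HIF list with the largest falls that hold ACGTG, the core of the hypoxia response element, are shown with that motif in capitals, written CACGT where it lies on the opposite strand (250 bases before the start, RefSeq, GRCm38.p6). Anxa2, an annexin that binds membranes in a calcium-dependent way, lies at chr9:69453433-69453682 on the plus strand, Bnip3 at chr7:138909507-138909756 on the minus strand, and Ak4 at chr4:101419453-101419702 on the plus strand; this Ak4 entry is 1 of 4 in the table.
Anxa2: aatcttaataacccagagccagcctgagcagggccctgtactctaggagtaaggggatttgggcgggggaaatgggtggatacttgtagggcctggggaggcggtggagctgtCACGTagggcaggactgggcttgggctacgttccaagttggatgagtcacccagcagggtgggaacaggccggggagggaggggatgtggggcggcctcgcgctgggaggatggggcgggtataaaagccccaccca
Bnip3: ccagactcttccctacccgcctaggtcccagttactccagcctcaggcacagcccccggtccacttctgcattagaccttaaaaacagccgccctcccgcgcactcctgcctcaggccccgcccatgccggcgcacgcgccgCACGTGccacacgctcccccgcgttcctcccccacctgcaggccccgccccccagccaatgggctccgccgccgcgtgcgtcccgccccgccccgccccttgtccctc
Ak4: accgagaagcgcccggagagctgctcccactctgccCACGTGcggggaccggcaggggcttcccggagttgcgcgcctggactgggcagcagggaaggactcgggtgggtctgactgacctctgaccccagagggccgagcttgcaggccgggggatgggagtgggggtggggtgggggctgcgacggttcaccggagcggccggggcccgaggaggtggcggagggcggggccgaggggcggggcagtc
In Bnip3 and Ak4 the motif stands in the palindrome CACGTG, which counts on both strands. ACGTG was found on either strand in 18 of the 25 genes of the HIF list with a promoter in the table and in 18.5% of all genes. It was in 9 of 11 that fell, in 8 of 13 that did not pass and in the promoter of Hif1a, so it was common in the list whether or not a gene changed. In the glycolytic list it was in 8 of 17. The promoters of the HIF list had a mean GC content of 64.7%, against 53% over all genes, and the part of base composition in these shares was not tested. The list was drawn up from known HIF targets, so its share of motifs is no independent finding.

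Oxidative stress genes rose in part. Of 25 measured, 9 rose and 1 fell, with a median of 0.29. Nqo1, a quinone reductase and standard target of Nrf2, read 6.51, 6.89 and 7.28 at day 0 and 8.36, 7.93 and 9.20 with AA, a rise of 3.04-fold without overlap. Gclm, the modifier subunit of the enzyme that makes glutathione's precursor, went from 9.39, 10.15 and 9.78 to 11.23, 11.36 and 11.21 (1.49 ± 0.28), and Gclc, its catalytic subunit, rose by 0.72 ± 0.16. Gpx1 and Txnrd1, which reduce peroxides and thioredoxin, rose by 0.94 ± 0.25 and 0.79 ± 0.17. The gene that fell was Sod2, the mitochondrial superoxide dismutase (-0.67 ± 0.18). Hmox1 and Srxn1, also Nrf2 targets, did not pass (0.32 and -0.03, adjusted p = 0.502 and 0.934). Without day 0 replicate 1, 8 rose and 2 fell, and in the fit of the 6 arrays alone 2 rose.

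Of the 14 genes of vitamin C transport and recycling, 3 rose, Glrx (1.02 ± 0.28), Glrx2 (0.51 ± 0.17) and Txnrd1, which reduce oxidised thiols or dehydroascorbate, and 2 fell, the hexose transporters Slc2a3 and Slc2a1. Without day 0 replicate 1, 5 rose and 3 fell. Slc23a2, the sodium-coupled ascorbate transporter, was at 8.26, 8.01 and 7.81 at day 0 and at 7.71, 8.15 and 7.75 with AA. The groups overlap (adjusted p = 0.632).

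Of 21 laminin and basement membrane genes, 7 fell, 0 rose and 14 did not pass, and without day 0 replicate 1, 7 fell and 1 rose. Nid1, the linker nidogen, read 8.25, 10.93 and 10.80 at day 0 and 7.07, 6.75 and 6.74 with AA, a fall of 8.82-fold, with day 0 replicate 1 between the groups. Fn1, fibronectin, fell by 1.75 ± 0.25, and the laminin chains Lama1 and Lamc1 by 2.09 ± 0.41 and 1.05 ± 0.18, while another bright Lamc1 probe set read -0.09. Agrn, a heparan sulfate proteoglycan, had tight groups (9.79, 9.77 and 9.83 to 8.36, 8.69 and 8.72). Of 22 collagen hydroxylases, chaperones and crosslinkers, 5 fell, all of them hydroxylases (P4ha1, P4ha2, Plod1, Plod2 and P3h1), and 1 rose, the prolyl isomerase Ppib (0.43 ± 0.10). When day 0 replicate 1 was left out, 8 of these 22 fell and 1 rose. Of 26 collagen genes, 0 passed in limma with all arrays, 2 higher and 3 lower had an unadjusted p under 0.05, and without day 0 replicate 1, 1 rose and 2 fell.

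Of 29 lysosome genes and TFEB family targets, 10 fell and 1 rose. Mitf, a factor of the TFEB family, went from 6.36, 9.14 and 9.49 to 5.70, 6.43 and 5.98, with replicate 1 apart, and the hydrolases Glb1 and Hexa fell by 1.61 ± 0.21 and 1.54 ± 0.37. Rragd, a GTPase that signals nutrients from the lysosome, rose by 2.04 ± 0.24. Day 0 replicate 1 was the lowest day 0 array in 9 of the 10 that fell, and without it 16 fell. The amino acid and ATF4 response list moved most with that array. With all arrays 1 of 27 members fell, Ddit3 (-0.72 ± 0.21), and without it 16 did. The mean level of this list was 8.39, 9.77 and 9.86 at day 0 and 8.72, 9.23 and 8.83 with AA, so replicate 1 lay below every AA array and the other 2 above them.

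Of 20 Notch genes, 5 fell, among them the receptor Notch1 (8.86, 8.95 and 8.85 to 7.92, 8.20 and 7.81) and Rbpj, its DNA-binding partner (-1.18 ± 0.29), and 1 rose, the ligand Dll3 (0.78 ± 0.23). When day 0 replicate 1 was left out, 4 fell and 4 rose. Of 28 Nodal and BMP genes, 4 fell, among them the ligand Bmp4 (7.23, 10.31 and 11.00 to 7.06, 6.89 and 7.24) and its target Id1 (-1.56 ± 0.23), and 2 rose, among them the Nodal antagonist Lefty2 (1.17 ± 0.26). For Bmp4 day 0 replicate 1 lay with the AA arrays, and without that array 4 members fell and 4 rose. Of 24 Wnt genes 2 rose and 2 fell, shares near the 7.42% and 6.27% of all genes. Of 18 retinoic acid genes 3 rose, including the retinol dehydrogenase Rdh10 (0.70 ± 0.21), and 0 fell, while 3 rose and 1 fell without day 0 replicate 1. Of 24 adhesion genes 4 fell, among them Icam1 (-1.97 ± 0.27) and Vim (-1.57 ± 0.25), and 1 rose, the epithelial splicing regulator Esrp1 (8.98, 7.33 and 5.73 to 8.97, 9.01 and 8.85), whose day 0 replicate 1 lies among the AA arrays. Without that array, 5 adhesion genes rose and 6 fell.

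Of 32 cell cycle genes, 4 rose, including Pttg1, securin (0.99 ± 0.23), and Ccne1, cyclin E (0.78 ± 0.13), and 3 fell, including Ccnd3 (-1.07 ± 0.27), whose other bright probe set read -0.03. When day 0 replicate 1 was left out, 5 of these 32 rose and 6 fell. Of 22 p53 targets 3 rose, led by the BH3 gene Pmaip1 (1.37 ± 0.25), and 1 fell, or 5 and 1 without that array. Of 18 heat shock genes 3 fell, the small heat shock proteins Hspb1 (-1.53 ± 0.28) and Cryab (-1.47 ± 0.22) and the inducible Hspa1b (-1.28 ± 0.34), and 1 rose, Hspd1, whereas without that array 7 fell and 1 rose. Among 44 respiratory chain subunits 3 rose and 5 fell, all by less than 1 log2 unit. Without that array 14 subunits fell and 2 rose. Among 31 imprinted genes 4 rose, including Mest (0.72 ± 0.17), and 2 fell. With all arrays, the cell cycle, p53, respiratory chain and imprinted counts lie within a few genes of the shares over all genes (7.42% rises and 6.27% falls).

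The step without AA shares the day 0 arrays, so its values stand beside those above with no count of shared genes. From day 0 to the day 2 controls 873 genes rose (4.80%) and 1271 fell (6.99%). Of the naive factors 17 fell, of the formative and primed genes 13 rose, and of the LIF targets 11 fell. Klf4 fell by 4.30 without AA and by 4.99 with it, Fgf5 rose by 3.04 and 3.07, and Socs3 fell by 1.31 and 1.53. Of the cholesterol genes 11 rose without AA and 15 with it, of the HIF list 8 and 13 fell, of the glycolytic enzymes 4 and 8 fell, and of the oxidative stress genes 2 and 9 rose. The differences between these counts were not tested.

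**Figure D4:**
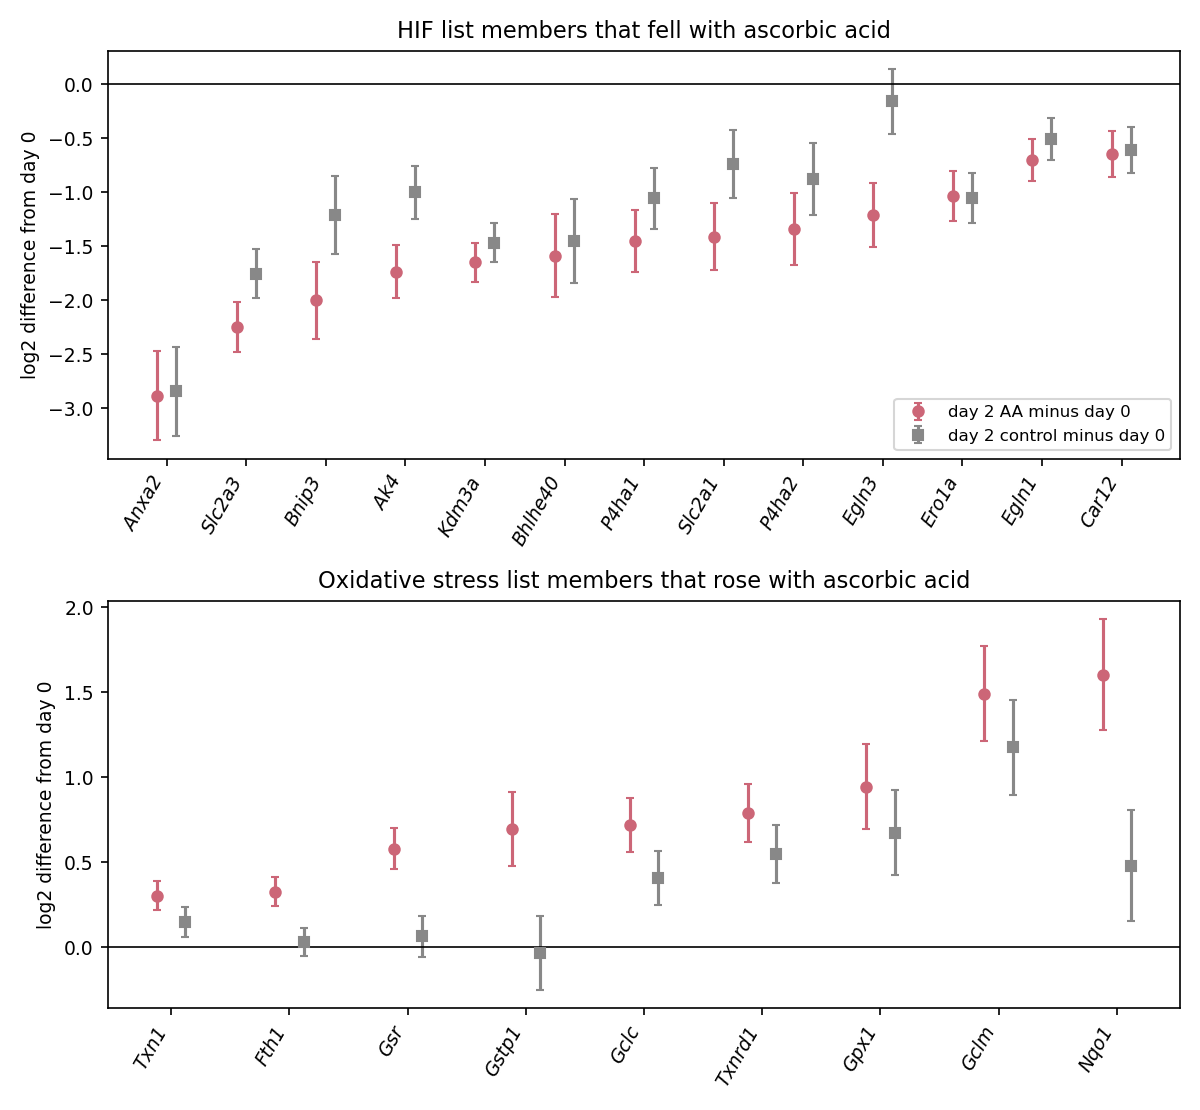
Log2 difference from day 0 (mean ± SE from limma, n = 3 per group) with AA (red circles) and in controls (grey squares), for the 13 HIF list members that fell with AA (top) and the 9 oxidative stress members that rose with it (bottom). The members were chosen by their AA step, so that step lies away from 0 by choice. Members that changed in controls only are not shown. For Egln3, Fth1, Gsr and Gstp1 the control step lies within its SE of 0, and for Anxa2, Ero1a and Car12 both steps lie together.

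The 2 steps share their start, so what sets them apart is the difference between the day 2 groups, which was tested directly. Without pairing, limma called 1 of 18193 genes (0.00550%), AI662270, and 1341 genes (7.37%) had an unadjusted p under 0.05. Within a day, AA and control arrays that carry the same number deviated together from their group means. A fit with 9 such pairs as blocks called 481 genes (2.64%), of which 383 (2.11%) were higher and 98 (0.539%) lower with AA. A fit of the 3 day 2 pairs alone called 100 (0.550%), and the same arrays without pairing gave 2 calls. The gene values below are from the fit with 9 pairs, and none of these genes was called without the pairing.

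In that paired fit 6 of 29 HIF list genes were lower with AA and 1 higher. Egln3 read 8.51, 8.95 and 8.44 in controls and 7.80, 7.97 and 6.97 with AA, so that all AA arrays lay below all controls (-1.05 ± 0.15, adjusted p = 0.00109). Its step from day 0 was -0.16 without AA and -1.21 with it. Bnip3, Ak4, Slc2a1, Ddit4 and Slc2a3 were the others, with log2 differences of -0.79, -0.74, -0.67, -0.65 and -0.49. Epas1 (Hif2a), the other HIF subunit, was higher (0.90). Of 17 glycolytic enzymes 6 were lower, led by Pfkl (-0.93 ± 0.10) and Pgk1 (-0.58 ± 0.08), and 2 higher.

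Of 25 oxidative stress genes 6 were higher with AA and 0 lower. Nqo1 read 7.37, 6.66 and 8.09 in controls and 8.36, 7.93 and 9.20 with AA (1.12 ± 0.12, adjusted p = 9.23e-05), with groups that overlap and a higher AA value in each of the 3 pairs. Gstp1, a glutathione transferase, was higher by 0.73 ± 0.09 and Gsr, glutathione reductase, by 0.52 ± 0.11. In controls they differed from day 0 by -0.03 and 0.06. Of 20 cholesterol genes 3 were higher, Insig1 (0.59), Msmo1 (0.52) and Hmgcs1 (0.27), and 0 lower. Of 23 naive factors, Klf4 was lower (-0.68 ± 0.13) and Dppa4 higher (0.49 ± 0.09), and of 27 formative genes 2 were higher, including Dnmt3a (0.61 ± 0.10), and 0 lower.

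Followed through the later AA groups, the day 2 changes had different courses. Klf4 stayed low at day 3 (5.97 ± 0.25, SD, n = 3) and was at 7.44 ± 0.52 at day 5, while Zfp42 went on down, from 9.53 ± 0.20 at day 2 to 4.67 ± 0.38 at day 5. Fgf5 peaked at day 3 (10.51 ± 0.20) and was back at 5.18 ± 0.38 at day 5. Dnmt3a and Wt1 had their highest AA means at day 2 (11.61 ± 0.12 and 8.18 ± 0.38) and were at 8.99 ± 0.33 and 4.53 ± 0.21 by day 5. Slc2a3 came back from 11.25 ± 0.59 to 13.60 ± 0.18, its day 0 level (13.50 ± 0.24), whereas Hmgcs1 stayed up (12.42 ± 0.14 at day 5). These courses are given as levels and were not tested here.

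**Figure D5:**
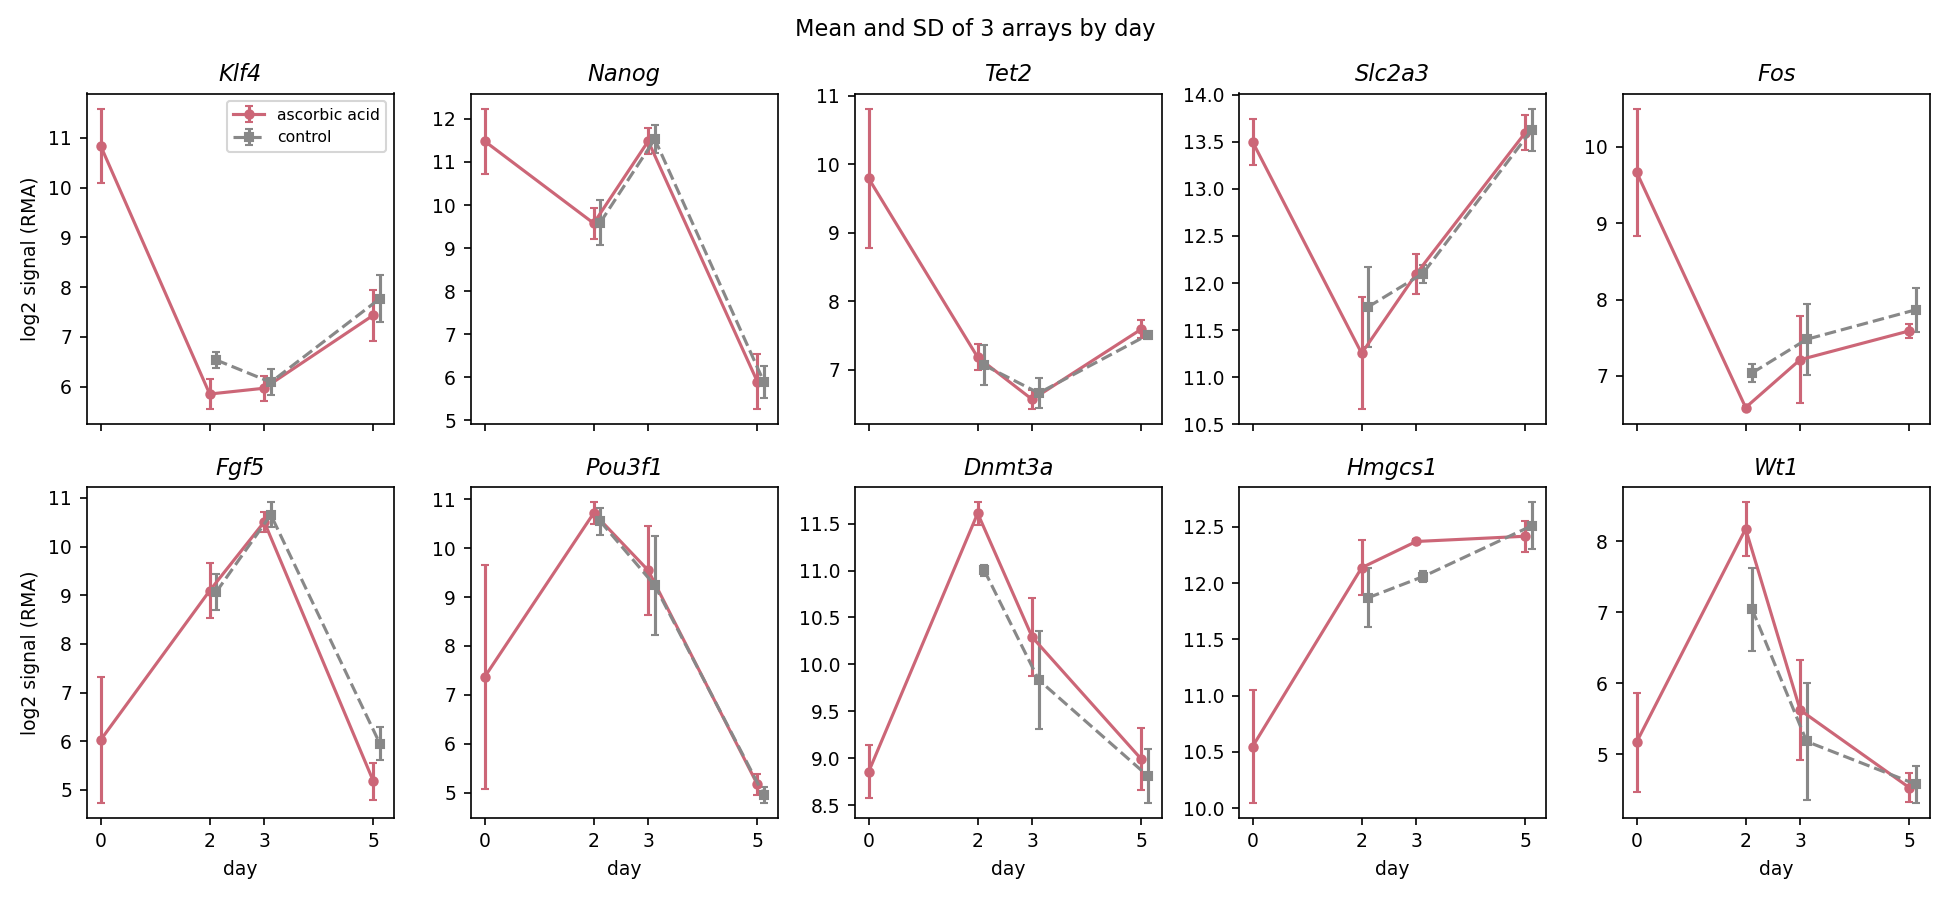
Mean log2 RMA signal of 10 genes by day of culture (error bars are SD, n = 3 arrays), with AA (red circles, solid line from day 0) and in controls (grey squares, dashed line). Klf4, Tet2, Slc2a3 and Fos drop from day 0 to day 2 in both arms, Wt1 and Dnmt3a have their highest mean at day 2, and Slc2a3 returns to its day 0 level by day 5.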

How the data were processed

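Values are the log2 RMA signals that the authors deposited for 21 arrays; RMA, with no version, is named in the submitters' processing notes. Of 45101 probe sets, 64 controls were set aside, 34958 had 1 gene symbol in the platform annotation, 932 had several and 9211 had none. Each of 18193 genes was read from its brightest probe set, by the mean of the 21 arrays. Differences were tested with limma 3.58.1 in R 4.3.3 (lmFit, eBayes with an intensity trend) on 7 group means, with Benjamini-Hochberg adjustment over all genes. The fit was tested on simulated data that gave each gene the same spread in all groups. That test therefore cannot show how the fit handles the wider spread of the day 0 arrays. Array medians ran from 6.05 to 6.19, 0 of 210 array pairs were identical, and the number of arrays limits the precision.

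Control and AA aggregates of a day were paired by number: the 3 day 2 pairs had deviations correlated at r of 0.178, 0.224 and 0.302. The fit with all 9 pairs as blocks (18 arrays) was chosen after seeing the data.

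Genes named by rule were the 12 largest called rises and falls whose arrays do not overlap and whose higher group mean reached 7, up to 4 called members per direction of lists with at least 3 called, and 22 markers. Other members named were chosen after their values were seen. The comparison and the 40 lists were chosen with earlier results of these data known. Promoters come from RefSeq (GRCm38.p6). The alternatives tried were other normalisations, filters, probe set rules, array weights, a replicate block, the 6 arrays alone and leaving out each array.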

Additional observations from a re-analysis of the deposited data

Results flagged for a closer look

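For 23 of the 144 genes named by rule the step from day 0 differed between the AA and the control arm. This was in the fit with 9 pairs (adjusted p from 3.82e-07 to 0.0471). None of the 23 was called without the pairing (limma, adjusted p from 0.164 to 0.749). Over all 18193 genes the fit with 9 pairs called 481 (2.64%). Apart from the markers, the named genes were chosen by a called step from day 0 to day 2 with AA. That step shares the day 2 AA arrays with the difference between the arms, so the choice can favour such differences. The count of 23 therefore cannot be weighed against the share over all genes. The values are log2 differences, day 2 with AA minus day 2 control. Higher with AA were Pttg1 (1.23), Wt1 (1.14), Nqo1 (1.12), Mme (0.99), Pmaip1 (0.68), Dnmt3a (0.61), Hs6st2 (0.60), Insig1 (0.59), Tet1 (0.54), Fn1 (0.43), Mest (0.40), Pcgf6 (0.35) and Hmgcs1 (0.27). Lower with AA were Hspa1b (-1.41), Pfkl (-0.93), Bnip3 (-0.79), Ak4 (-0.74), Klf4 (-0.68), Vim (-0.63), Eomes (-0.62), Jag1 (-0.57), Slc2a3 (-0.49) and Fos (-0.45). Pttg1, securin, rose from day 0 with AA (0.99) and differed by -0.24 in controls. Hspa1b, an inducible heat shock protein, fell with AA (-1.28) and differed by 0.14 in controls.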

How the results depend on the processing

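Day 0 and day 2 AA arrays of the same number had deviations correlated at r of 0.171, -0.015 and 0.166. Those of different numbers had r from -0.23 to 0.02. Whether the numbers pair these groups was not settled, and the main fit takes them as unpaired. With the replicate block on these 6 arrays, 911 genes were called, of which 494 rose and 417 fell. The 6 arrays alone called 711 (428 and 283), and array weights gave 1873 falls. Leaving out 1 array gave 1586 to 3562 calls, 884 to 1592 rises and 644 to 1970 falls. Renewed quantile normalisation gave 1315 rises and 1324 falls. Between the day 2 groups, the 1 call became 0 with genes of mean 6 or more, 2 with renewed quantile normalisation, with the mean of probe sets or with the 6 arrays alone, 1682 with array weights, 100 with the replicate block and 481 with the 9 pairs, and leaving out 1 array gave 0 to 8.

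With the 6 arrays alone 7 naive factors fell (13 to 17 leaving out 1 array), 6 formative genes rose (13 to 18), 6 LIF targets fell (10 to 12), 4 cholesterol genes rose (10 to 16), 5 HIF list genes fell (8 to 16) and 2 oxidative stress genes rose (6 to 8). With the replicate block 9 cholesterol and 4 oxidative stress genes rose. Of the 131 named genes called, 72 lost the call with the 6 arrays alone and 38 with the block. Of these 131, 55 kept it in every setting run and 92 in every fit that left out 1 array. Among markers that did not pass, the sign turned when 1 array was left out for Sox1 (-0.0733 to 0.0417, with 0.0367 without day 0 replicate 1), Nkx2-5 (-0.31 to 0.0133) and Sox17 (-0.15 to 0.16). With the mean of probe sets it turned for Pax6 (-0.0987), Gata6 (0.0144) and Sox17 (-0.01). The cause of these shifts was not tested. Of the 131, 80 had other probe sets. Of these 156 probe sets 13 had the opposite sign, and of the 72 with a mean of at least 7, 0 had. Sizes moved as well. Over the settings run, log2 differences went from -4.01 to -1.65 for Nid1, from -3.51 to -1.28 for Klf5 and from 1.01 to 3.23 for Hs6st2.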

Other observations

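Families of genes that share a name stem were counted after the values had been seen, so they carry no test. Over all genes 7.42% rose and 6.27% fell. Of 15 Timm genes, which encode the import machinery of the inner mitochondrial membrane, 10 rose and 0 fell from day 0 to day 2 with AA, with a median of 0.52. Timm21 rose most (1.67 ± 0.19, adjusted p = 1.45e-05). In controls 5 rose, and without day 0 replicate 1, 8 rose and 1 fell. Of 47 Mrpl genes, which encode the large subunit of the mitochondrial ribosome, 14 rose and 0 fell (median 0.35). In controls 5 rose and 1 fell, and without day 0 replicate 1, 9 rose and 2 fell. In the 6 arrays alone 4 Timm and 4 Mrpl genes rose. The counterparts of these families were counted too. Of 8 Tomm genes, for import at the outer mitochondrial membrane, 2 rose and 0 fell with AA (median 0.15). Of 29 Mrps genes, for the small subunit of the mitochondrial ribosome, 5 rose and 0 fell (median 0.28).

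Of 12 selenoprotein genes, whose products carry selenocysteine and include redox enzymes, 7 rose and 0 fell with AA (median 0.77). Selenop, the secreted selenium carrier, rose by 1.81 ± 0.32 and Selenoh by 1.57 ± 0.26. In controls 5 of them rose. Of 16 genes of the Klf family of zinc finger factors, 9 fell and 1 rose. Beside Klf2, Klf4 and Klf5 these included Klf9 (-1.35 ± 0.16), Klf3 (-1.25) and Klf12 (-1.21), while Klf7 rose (0.74). In controls 7 Klf genes fell and 1 rose, and in the 6 arrays alone 4 fell with AA and 0 rose. Of 18 Atg genes of autophagy, 5 fell and 0 rose with AA, and 6 fell in controls. Without day 0 replicate 1, 8 of them fell, and in the 6 arrays alone 0 were called.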
